A study of Mus musculus with 2 samples.

Results

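The Y complex, also known by its subunits Nup107 and Nup160, is the scaffold unit of the outer rings of the nuclear pore, and Seh1, the nucleoporin that the series is titled for, is one of its subunits. Its members were taken by symbol from a list of 10 genes, Seh1l, Nup85, Nup43, Nup160, Nup37, Ahctf1, Nup107, Nup133, Nup98 and Sec13, and all 10 were found among the 17359 genes of the expression table. Nup98 is included because its gene also encodes Nup96, the Y complex subunit, in the same precursor. Transcripts were measured by RNA sequencing of mouse neural stem cells that received an siRNA against Chd4 (siChd4, 1 library, genotype labelled as a Chd4 knockdown) or a scrambled siRNA (siSCR, 1 library, genotype labelled as control). The sources used here name no strain, age, siRNA dose or time. With 1 library per group there is no replicate check, no test between conditions was possible, and each difference is between these libraries only.

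In each Y, a short arm of Nup85, Seh1 and Nup43 and a long arm of Nup160 and Nup37 meet a stem of Nup96, Sec13, Nup107 and Nup133, and copies of the Y join head to tail into rings on both faces of the pore. Elys, the product of Ahctf1, binds chromatin at the end of mitosis and brings the Y complex there to start pore assembly, and in mitosis a pool of the complex sits at kinetochores. Seh1 and Sec13 also work outside the pore, both in GATOR2, which controls the growth kinase mTORC1, and Sec13 in the COPII coat of vesicles that leave the endoplasmic reticulum. In the oligodendrocyte lineage, Seh1 is known to work with the transcription factor Olig2 and with Brd7.

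The library labelled siChd4 held 20072009 estimated counts and the siSCR library 19816811. Chd4 itself was at 203 TPM (a transcript level scaled by transcript length and to the same total in each library) in siChd4, against 250 TPM in siSCR, or 0.815-fold (95% counting interval 0.795 to 0.836). Folds are of TPM, siChd4 over siSCR, and their exact Clopper-Pearson intervals cover counting error only. Log2 ratios are on TPM plus 1, which brings ratios slightly closer to 0. The 1.5-fold and 1.2-fold limits were applied to these log2 ratios, not to the TPM folds. The background was all 12882 genes whose mean TPM reached 1, and all 10 members passed that limit. Chd4, at a log2 ratio of -0.29, was past 1.2-fold lower, as were 22.3% of these genes. All 10 of the neural stem cell markers examined were detected, but they did not move together: the interval of the fold lay above 1 for 4, among them Vim (1.45-fold), below 1 for 4, among them Slc1a3 (0.701-fold), and included 1 for 2.

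Transcripts of 9 of the 10 Y complex genes were lower in siChd4 than in siSCR, by 11.4 to 26.5%, and Sec13 was higher. In RNA from a whole culture, fewer cells of a type and less RNA per cell cannot be told apart. The share of genes with a log2 ratio below 0 among all 12882 was 55.3%. The median log2 ratio of the 10 members was -0.25 and that of all genes tested was -0.04, with the middle 50% of genes between -0.24 and 0.17. No member passed a 1.5-fold difference in either direction, a limit that 4.47% of genes passed on the lower side and 6.75% on the higher side (2.29% and 5.60% on FPKM values). At 1.2-fold, 4 members were lower (Seh1l, Nup160, Nup37 and Ahctf1), as were 22.3% of all genes, and no member was higher, as were 18.1% of all genes. Nup133 fell just short of that limit on TPM plus 1, although its TPM fold of 0.829 was past it. The counting interval of the fold lay below 1 for each of the 9 lower members, as it did for 34.1% of all genes, and above 1 for Sec13, as for 25.1% of all genes. These intervals are on TPM and were not recomputed under other scalings. That of Nup43 ended at 0.979, above the median ratio of siChd4 to siSCR over genes tested, 0.972. Scaling by that median would bring the Nup43 interval across 1.

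**Figure D1:**
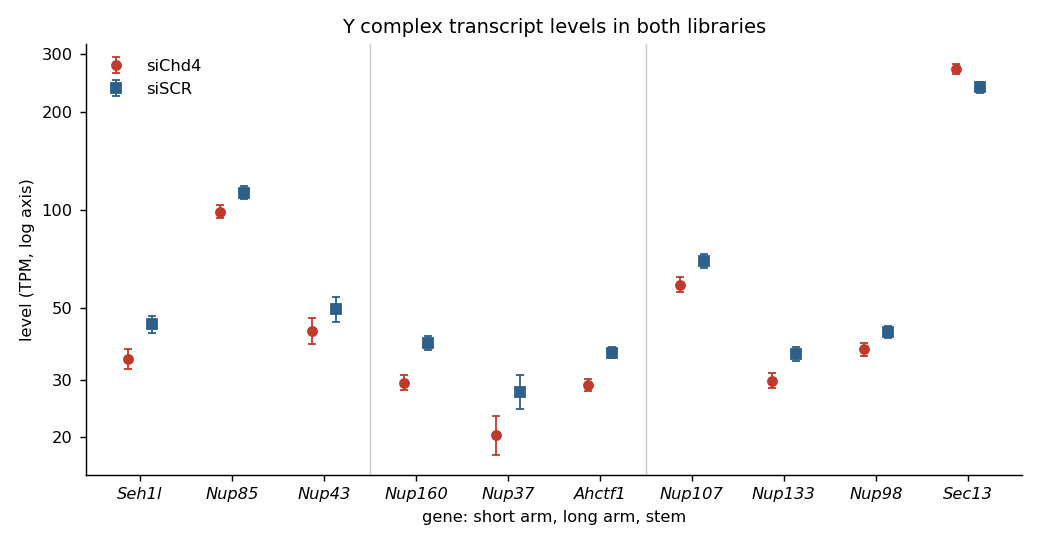
Levels of the 10 Y complex genes in TPM (log axis) in the siChd4 library (circles) and the siSCR library (squares), ordered by the arm or stem of the complex, with exact Poisson 95% intervals of the estimated counts. The siChd4 value lies below the siSCR value for 9 genes and above it for Sec13.

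Seh1l (Entrez 72124) encodes the WD repeat propeller Seh1 of the short arm. It was at 34.9 TPM in siChd4, from 858 estimated counts, and at 44.5 TPM in siSCR, from 1040 estimated counts. The Poisson intervals of these levels, 32.6 to 37.3 TPM in siChd4 and 41.8 to 47.3 TPM in siSCR, did not overlap. The fold was 0.783 (0.715 to 0.858) and the log2 ratio -0.34, below which lay 15.3% of all genes tested.

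The other short arm genes were lower too. Nup85, whose product is the rod that Seh1 docks on, was at 98.8 TPM in siChd4, against 113 TPM in siSCR (0.876-fold, 0.820 to 0.936). Nup43, a further propeller of the arm, was at 42.5 TPM in siChd4, against 49.5 TPM in siSCR (0.859-fold, 0.753 to 0.979). Its levels overlapped within their Poisson intervals, which reached 46.7 TPM in siChd4 and began at 45.2 TPM in siSCR, although the interval of its fold stayed just below 1.

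Of the long arm genes, 2 had the lowest folds of the complex. Nup160, the large scaffold subunit of the arm, was at 29.5 TPM in siChd4, against 39.0 TPM in siSCR (0.756-fold, 0.704 to 0.811, log2 ratio -0.39). Nup37, the small propeller bound to Nup160, was at 20.3 TPM in siChd4, against 27.7 TPM in siSCR (0.735-fold, 0.610 to 0.884, log2 ratio -0.43). Nup37 had the fewest reads of the members, 207 estimated counts in siChd4 and 267 in siSCR, and so the widest interval. Ahctf1, which encodes the chromatin-binding Elys and is counted here with the long arm that it binds, was at 29.0 TPM in siChd4, against 36.4 TPM in siSCR (0.796-fold, 0.751 to 0.843, log2 ratio -0.32). The median log2 ratio was -0.39 over these 3 genes and -0.21 over both the 3 short arm and the 4 stem genes. Over all genes the log2 ratio fell with transcript length, and with that trend subtracted these medians were -0.26 for the long arm, -0.23 for the short arm and -0.08 for the stem. The genes were sorted into arms and stem with their values already known.

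In the stem, Nup107 and Nup133 were both lower. Nup107 was at 59.0 TPM in siChd4, against 69.8 TPM in siSCR (0.844-fold, 0.787 to 0.906), and Nup133 at 29.9 TPM in siChd4, against 36.1 TPM in siSCR (0.829-fold, 0.772 to 0.891). Nup98 was at 37.3 TPM in siChd4, against 42.1 TPM in siSCR (0.886-fold, 0.832 to 0.943, log2 ratio -0.17), nearest to 1 among the lower members. On FPKM, which scales the libraries differently and also took a pseudocount of 1, its log2 ratio was -0.11. Sec13, the propeller shared with COPII and GATOR2, was at 271 TPM in siChd4, from 2825 estimated counts, and at 238 TPM in siSCR, from 2349 (1.14-fold, 1.08 to 1.205, log2 ratio 0.19). It was the member that stood apart in direction, and 76.5% of all genes had a lower log2 ratio.

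**Figure D2:**
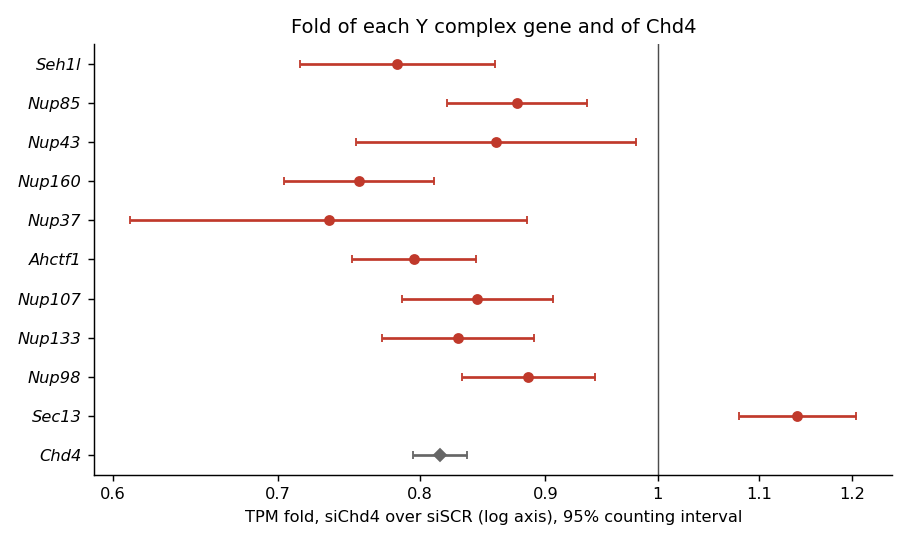
TPM fold, siChd4 over siSCR (log axis), of the 10 Y complex genes and of Chd4 (diamond), with 95% counting intervals. The intervals of 9 members lie below 1, that of Sec13 lies above 1, and Chd4 lies at 0.815, within the range of the lower members.

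The folds of the members were set against each other and against Chd4 on their counts, as ratios of folds with exact conditional intervals. Genes outside the complex were not compared in this way. The counts below therefore have no background share beside them and do not set the members apart from other genes. Relative to Seh1l, the intervals of 7 of the 9 other members included 1, so these folds were not distinguishable from that of Seh1l at this depth. The exceptions were Sec13, whose fold was 1.46 times that of Seh1l (1.31 to 1.62), and Nup98, at 1.13 times (1.02 to 1.27). The interval for Nup85 began at 0.9999 and ended at 1.25. Relative to Sec13, all 9 other members had intervals below 1, from 0.644 for Nup37 to 0.777 for Nup98. The folds of 7 of the 10 members were not distinguishable from that of Chd4, the siRNA's target. Of these, Nup85 was at the edge, with an interval against Chd4 of 0.9999 to 1.15. Nup160 was below it (0.927 times, 0.855 to 0.993), and Nup98 (1.09 times, 1.02 to 1.16) and Sec13 (1.40 times, 1.31 to 1.49) were above.

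Because TPM is relative to length, levels can be compared between genes. Sec13 was the most abundant member and Nup37 the least in both libraries, and the ratio of the highest to the lowest level was 13.3 in siChd4 and 8.60 in siSCR. Next to Sec13 came Nup85, Nup107 and Nup43, in this order in both libraries, where Sec13, Nup85, Nup107 and Nup43 were separated from each other by more than their counting intervals. Below them the genes lay close together. In siChd4 the order went on with Nup98, Seh1l, Nup133, Nup160 and Ahctf1, in siSCR with Seh1l, Nup98, Nup160, Ahctf1 and Nup133. Neighbours from Nup43 down to Nup133 overlapped within their intervals in siSCR. In siChd4 neighbours overlapped from Nup43 to Seh1l and from Nup133 to Ahctf1, while Seh1l and Nup133 did not. Nup37 stood below its neighbour beyond the interval in both.

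Summed over the 10 genes, Y complex transcripts came to 652 TPM in siChd4, against 696 TPM in siSCR, and without Sec13 to 381 TPM in siChd4, against 458 TPM in siSCR, a ratio of 0.832. Sec13 made up 41.6% of the members' TPM in siChd4 and 34.2% in siSCR. Seh1l made up 5.35% in siChd4 and 6.40% in siSCR, and each of the other 8 members likewise had a smaller share in siChd4.

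The length behind each TPM can be read from the table as estimated counts over FPKM and depth. It was nearly the same in both libraries for every member, with a ratio within 0.522% of 1 after scaling by the median gene. For Seh1l the implied length was 2957 bases in siChd4 and 2961 bases in siSCR, between the 3542 and 1684 bases of its protein-coding transcripts in GENCODE M21, which encode 360 and 357 residues. For Nup98 it was 6236 bases in siChd4 and 6219 bases in siSCR. The longest annotated Nup98 transcript has 6694 bases and encodes 1816 residues, the length of the joined Nup98 and Nup96 precursor, and the next has 4052 bases and encodes 1187 residues. The authors' own annotation may hold other transcripts. The gene total cannot say how much of the Nup98 signal stands for Nup96.

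Over all genes, longer transcripts had lower ratios: the 1288 shortest genes had a median of 0.01 and the 1288 longest one of -0.20. Several Y complex transcripts are long, and with the trend subtracted the log2 ratio of Ahctf1 (8781 bases in siSCR) was -0.11, that of Nup98 was -0.02, that of Nup133 was -0.13 and that of Nup160 was -0.26. The shorter genes moved less, with Seh1l at -0.32, Nup37 at -0.44, Nup43 at -0.23 and Sec13 at 0.17. After subtraction 9 of 10 members were still below 0, against 49.8% of all genes, and their median was -0.20.

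**Figure D3:**
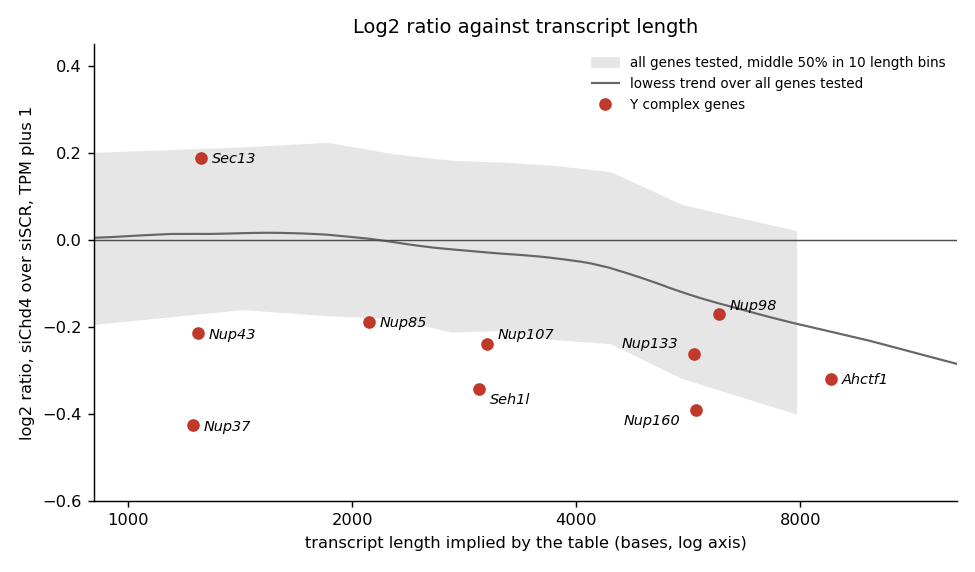
Log2 ratio, siChd4 over siSCR on TPM plus 1, against the transcript length implied by the table (bases, log axis) for the 10 Y complex genes (points), with the middle 50% of all genes tested in each of 10 length bins (grey band) and the lowess trend (line). Nup98 lies near the trend line at -0.17, while Seh1l, Nup37, Nup43 and Nup160 lie below it and Sec13 above.

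Promoters are shown for Sec13, the member that was higher, and for Nup37 and Nup160, the members with the lowest folds. Sequences are those of RefSeq on the GRCm38.p6 assembly, from 250 bases before to 50 bases after the annotated start, 5′ to 3′ on the gene's strand. The table of promoters matched 7 of the 10 members. Capitals mark matches, on either strand, to short motifs known from promoters, whose letters are given with their shares after the sequences. No matches overlapped in these windows.
Sec13, chr6:113740632-113740931, minus strand: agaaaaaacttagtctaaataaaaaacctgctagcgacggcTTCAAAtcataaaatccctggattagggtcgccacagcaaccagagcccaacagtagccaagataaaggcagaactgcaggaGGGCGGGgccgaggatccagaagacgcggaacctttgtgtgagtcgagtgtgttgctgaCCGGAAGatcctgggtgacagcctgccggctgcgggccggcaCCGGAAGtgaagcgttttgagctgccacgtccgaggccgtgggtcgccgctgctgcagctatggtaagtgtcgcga
Nup37, chr10:88146742-88147041, plus strand: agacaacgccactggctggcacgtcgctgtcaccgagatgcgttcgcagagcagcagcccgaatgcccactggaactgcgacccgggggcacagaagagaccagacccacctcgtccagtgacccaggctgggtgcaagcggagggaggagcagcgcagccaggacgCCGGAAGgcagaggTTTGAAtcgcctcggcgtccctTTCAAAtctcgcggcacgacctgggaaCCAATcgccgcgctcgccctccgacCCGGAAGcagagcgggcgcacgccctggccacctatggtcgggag
Nup160, chr2:90676965-90677264, plus strand: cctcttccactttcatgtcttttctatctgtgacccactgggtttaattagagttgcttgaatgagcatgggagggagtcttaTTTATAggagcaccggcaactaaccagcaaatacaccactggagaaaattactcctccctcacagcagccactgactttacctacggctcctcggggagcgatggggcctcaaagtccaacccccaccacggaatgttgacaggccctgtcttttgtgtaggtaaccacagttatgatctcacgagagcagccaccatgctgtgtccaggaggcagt

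The letters of the ETS family motif, CCGGAAG, were present in the windows of Sec13, Nup37 and Nup107, 3 of 7, and in 18.1% of 10330 windows of genes tested. Those of the cell cycle homology region, TTTGAA, were present in Sec13, Nup37 and Nup98, against 11.5% of windows. The GC box, GGGCGGG, was found in Sec13, Nup107 and Nup133, against 48.2% of windows. The CCAAT box was found in Nup37 and Nup98, against 39.4%. The NRF1 core, GCATGCGC, was found in Nup107, where matches on both strands overlap, against 5.51%. The cAMP response element, TGACGTCA, was found in Nup133, against 3.36%, and the TATA box letters, TATAAA, in Nup160, against 6.52%, at a place far before the start. Sec13 and Nup37 shared the ETS and cell cycle homology letters while their log2 ratios had opposite signs. The Ahctf1 window held none of these letters. A match, or its lack, describes these letters in this window only.

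Other parts of the pore were examined by subcomplex from lists made with earlier results of these data known. Beside the Y complex median of -0.25, the 21 nucleoporin genes outside it had a median log2 ratio of -0.24, with 19 below 0. The share below 0 among all genes tested was 55.3%. With the length trend subtracted the medians were -0.20 for the Y complex and -0.08 for the other 21 genes. The subcomplexes among these 21 were uneven, at -0.25 for the inner ring and -0.18 for the central channel after subtraction. Those of the basket, cytoplasmic face and transmembrane list are given below. The inner ring had 5 of 5 below 0 (median -0.29), with Nup93, its linker scaffold, at 91.7 TPM in siChd4, against 111 TPM in siSCR and Nup205 at 67.9 TPM in siChd4, against 91.8 TPM in siSCR. The central channel, of FG proteins that form the permeability barrier, had 3 of 3 below 0 (median -0.23), with Nup62 at 53.2 TPM in siChd4, against 54.3 TPM in siSCR and Nupl1, also known as Nup58, at 43.0 TPM in siChd4, against 50.5 TPM in siSCR. The nuclear basket had 3 of 3 below 0 (median -0.25, or -0.07 with the length trend subtracted), with Tpr at 80.0 TPM in siChd4, against 95.6 TPM in siSCR and Nup50 at 72.8 TPM in siChd4, against 80.9 TPM in siSCR.

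The cytoplasmic face was closest to the background, with 5 of 7 below 0 and a median of -0.09, or -0.02 with the length trend subtracted. In it, Nup88 was at 99.3 TPM in siChd4, against 106 TPM in siSCR, and Aaas at 68.8 TPM in siChd4, against 81.4 TPM in siSCR. Rae1, which also binds the Nup98 protein, was at 76.2 TPM in siChd4, against 67.7 TPM in siSCR (1.13-fold, 1.03 to 1.23). The transmembrane list had 3 of 3 below 0 (median -0.43, or -0.26 with the length trend subtracted). Its member Ndc1, a membrane anchor of the pore, was at 34.5 TPM in siChd4, against 90.2 TPM in siSCR (0.383-fold). This was the one difference past 1.5-fold among all 31 nucleoporin genes, a limit that 4.47% of all genes passed on the lower side.

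**Figure D4:**
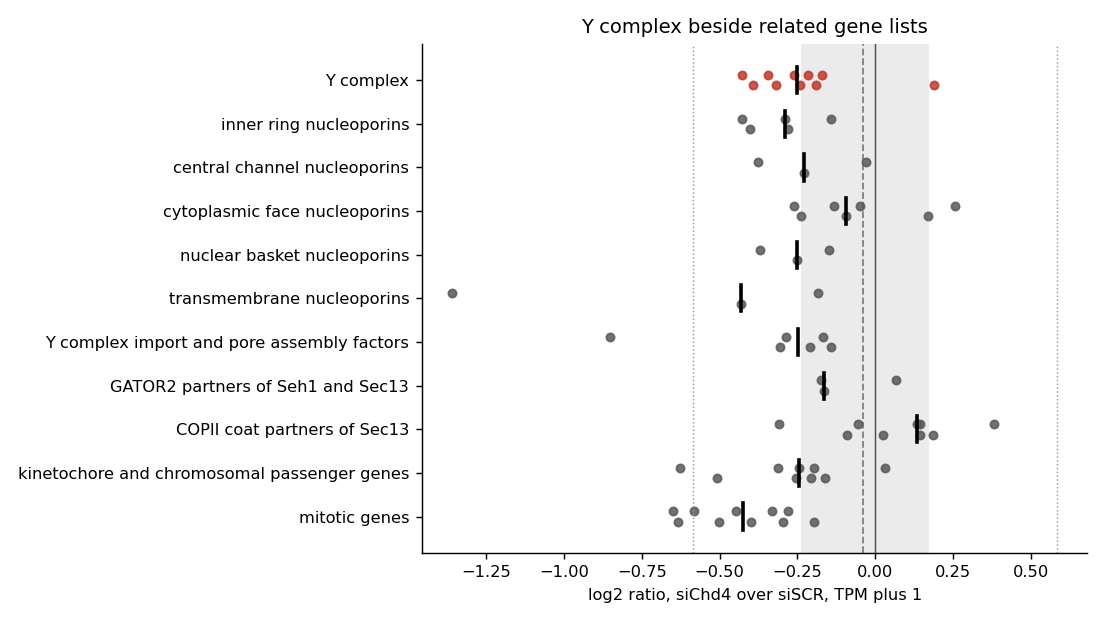
Log2 ratio, siChd4 over siSCR on TPM plus 1, of each tested gene (points) in the Y complex and in related lists, with list medians (bars), the middle 50% of all genes tested (grey band), their median of -0.04 (dashed line) and 1.5-fold limits (dotted lines). The Y complex lies mostly below the band's centre with Sec13 apart from it, COPII genes lie mostly above 0, and Ndc1 lies farthest to the left.

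Factors that import Y complex subunits or govern pore assembly were all lower, 6 of 6, with a median of -0.25. Of all genes tested, 55.3% were below 0 and 4.47% were past 1.5-fold lower. Tnpo1, the import receptor transportin, was past 1.5-fold at 101 TPM in siChd4, against 182 TPM in siSCR (0.552-fold, 0.535 to 0.569). Kpnb1, importin beta, which holds Y complex subunits until Ran releases them, was at 325 TPM in siChd4, against 366 TPM in siSCR, and Ran was at 682 TPM in siChd4, against 789 TPM in siSCR.

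The partners of Seh1 and Sec13 outside the pore gave a mixed picture. GATOR2 consists of Seh1, Sec13, Mios, Wdr24 and Wdr59, and of the last 3 genes, 2 were below 0, as were 55.3% of all genes. Their median was -0.16, or -0.09 with the length trend subtracted, and 0 passed 1.5-fold. Mios was at 27.6 TPM in siChd4, against 31.3 TPM in siSCR (0.882-fold, 0.806 to 0.965), and Wdr24 was at 16.2 TPM in siChd4, against 15.4 TPM in siSCR, with an interval of 0.911 to 1.21 that includes 1. Of 9 tested COPII genes, 6 were above 0, a direction that 44.5% of all genes had, with a median of 0.14, or 0.08 with Sec31b, a gene of low level, included. None passed 1.5-fold. Sar1a, the GTPase that starts the coat, was at 212 TPM in siChd4, against 208 TPM in siSCR, and Sar1b at 172 TPM in siChd4, against 179 TPM in siSCR. Sec31a, which forms the outer coat together with Sec13 and was chosen here after its value was seen, was at 97.4 TPM in siChd4, against 88.1 TPM in siSCR (1.11-fold, 1.05 to 1.16). The COPII list went both ways, with 3 of the 9 tested genes below 0.

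The known Seh1 partner Olig2 was at 880 TPM in siChd4, against 890 TPM in siSCR, while Cdkn1a, added to the same list as the gene of the CDK inhibitor p21, stood at 662 TPM in siChd4, against 577 TPM in siSCR. The partner Brd7, a bromodomain protein, was at 109 TPM in siChd4, against 117 TPM in siSCR (0.929-fold). With Chd4, this list of 4 had a median of -0.06, between -0.03 and -0.0022 under other scalings and on FPKM, and 0 past 1.5-fold.

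Mitotic genes were lower beside the Y complex. All 10 genes of a mitotic list were below 0, as were 55.3% of all genes tested. Their median log2 ratio was -0.42, and they summed to 1598 TPM in siChd4, against 2179 TPM in siSCR. Ccnb1, the mitotic cyclin, was at 208 TPM in siChd4, against 328 TPM in siSCR, and Ccnb2 at 81.6 TPM in siChd4, against 127 TPM in siSCR. Both were past 1.5-fold lower, as were 4.47% of all genes. Of 9 genes of the kinetochore and the chromosomal passenger complex, which Y complex subunits meet in mitosis, 8 were below 0 (median -0.24). Cenpf, whose product binds Nup133, was past 1.5-fold at 50.7 TPM in siChd4, against 78.9 TPM in siSCR. The part of the mitotic genes in the Y complex result was not tested.

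Markers of other cells were examined too. Among all genes tested, 44.5% were above 0 and 55.3% below 0. Past 1.5-fold, 6.75% were higher and 4.47% lower. All 10 neuron markers were above 0, 5 of them past 1.5-fold, and their summed level was 710 TPM in siChd4, against 528 TPM in siSCR (194 TPM in siChd4, against 101 TPM in siSCR without Map2). The fold intervals of Rbfox3 (0.951 to 2.64) and Stmn2 (0.987 to 3.17), both of low level, included 1, and those of the other neuron markers lay above 1. Of 9 oligodendrocyte lineage markers, 7 were tested, all above 0 and 6 past 1.5-fold, with a sum over the 9 of 266 TPM in siChd4, against 138 TPM in siSCR. Of 6 astrocyte markers, 4 were below 0 and 2, Gja1 (0.387-fold) and Slc1a2 (0.621-fold), were past 1.5-fold lower. They summed to 555 TPM in siChd4, against 545 TPM in siSCR, but without the abundant Aldh1l1 to 134 TPM in siChd4, against 236 TPM in siSCR. Neural stem cell markers, with 4 of 10 below 0, summed to 13656 TPM in siChd4, against 11556 TPM in siSCR. Vim and Fabp7 set that direction, since the other 8 summed to 1817 TPM in siChd4, against 2111 TPM in siSCR. The direction of these 8 rested in turn on Slc1a3, at 878 TPM in siChd4, against 1254 TPM in siSCR. That difference is larger than the difference of the 8 together. Microglia markers summed to 36.8 TPM in siChd4, against 7.08 TPM in siSCR over the 5 of 6 matched, nearly all of it P2ry12, with Aif1 at 0 in siSCR. P2ry12 was the only one whose mean TPM reached 1, so this sum describes that gene and not a cell type. Endothelial markers summed to 3.62 TPM in siChd4, against 2.51 TPM in siSCR over the 4 of 5 matched. The 2 whose mean TPM reached 1, Flt1 (0.829 to 1.65) and Kdr (0.911 to 2.20), had fold intervals that include 1. Pecam1, below that limit at 0.85 TPM in siChd4, had an interval above 1 (1.18 to 7.09). Any part of cell type make-up in the Y complex result was not tested.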

How the data were processed

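RNA sequencing libraries of neural stem cells with siChd4 or siSCR, 1 per group, were grouped by their titles. Per the file headers, the authors deposited FPKM, TPM and read counts per gene. The deposited read counts are not whole numbers and are treated as estimated counts, rounded for intervals. Per the submitters' processing notes, the genome build is mm39. The sources used here name no aligner or counter and say nothing of strand or duplicates, so reads of overlapping antisense genes may be shared.

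The log2 ratio of TPM plus 1 (pseudocount 1) was computed with Python 3.11.15, numpy 2.4.6 and pandas 2.3.3. Intervals (95%, scipy 1.17.1) are for counting error alone, as PCR copies without identifiers are not separate molecules. Interval code was tested on simulated data. The length trend was a lowess fit (span 0.3, statsmodels 0.14.6). TMM factors came from edgeR 4.0.16, and figures from matplotlib 3.10.9. Transcript lengths are from GENCODE M21, by Entrez number, where 1108 genes with 1 transcript had a median implied length of 0.977 of the annotated one. Nup58 and Nup42 were matched as Nupl1 and Nupl2 through RefSeq synonyms.

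Members, lists and tests were chosen with earlier results of these data known. All 10 members and Chd4 are named, and of each other pathway list the genes past 1.5-fold or else its 2 most abundant. Vim, Slc1a3, Fabp7, Map2, Aldh1l1, Gja1, Slc1a2, Sec31b, P2ry12, Aif1, Rae1, Kpnb1, Ran, Brd7 and Sec31a were named with their values in view. So were Nupl2, Flt1, Kdr, Pecam1, Rbfox3, Stmn2, Sox10 and Cldn11. Apart from Sec31a, no gene was named for likeness to a member, since each gene has 1 ratio.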

Additional observations from a re-analysis of the deposited data

How the results depend on the processing

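The members' results were computed under 11 alternatives, all planned, although members, lists and tests were chosen with earlier results of these data known. Some alternatives, such as a different filter, apply to the complex and not to single members. The log2 ratio of Seh1l lay between -0.35 (pseudocount of 0.1) and -0.28 (FPKM), and the median of the complex between -0.29 (without Nup98 and Sec13) and -0.19 (FPKM). The number of members below 0 was 9 in each alternative over all 10 members, and 8 of 8 without Nup98 and Sec13. The number past the limit was 0 in each alternative at 1.5-fold and 4 at a 1.2-fold limit, all lower (Seh1l, Nup160, Nup37 and Ahctf1), a limit that 22.3% of all genes passed on the lower side. Of 60 member values, 56 stayed within the counting interval and none changed sign. The other 4 are the length-corrected values of Nup133, Nup160, Nup98 and Ahctf1 given above, where the cause of the length trend was not tested. Of 88 list medians, 81 stayed within the counting error and none changed sign. The 7 that moved further are those of the basket, transmembrane and mitotic lists with the length trend subtracted (-0.34 for mitotic genes), of import factors on FPKM (-0.19), and of Chd4 and Seh1 partners under 3 settings. On FPKM, 295 of 12882 genes were 1.5-fold lower and 721 higher, against 576 and 870 on TPM. The same pseudocount of 1 weighs more on FPKM, whose values are smaller, with Seh1l in siChd4 at 14.45 FPKM and 34.86 TPM. Its part in the smaller counts was not tested. No replicate could be left out with 1 library per group. No paired analysis was possible because siChd4 and siSCR have 1 library each. Depth limits Nup37 most, at 207 estimated counts in siChd4.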
